A study of Homo sapiens with 54 samples.

Results

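FARP2, RHOBTB2, RHOV, PAG1, MGLL, and TFEB are 6 of the 31835 genes of the UMI table and were followed through every library of the series. They were selected on their fitted fold change of mutant against wild-type cells at 2 h, where all 6 were lower, so the 2 h values are given as a description and were not tested. The same measure was tested in the libraries of 4 h and 8 h, whose values the choice did not use. These libraries are of the same transduced cells as those of 2 h, so they are not an independent check of the choice. The cells were OCI-Ly1, a human germinal center type B cell lymphoma line, in which all groups carried a CMV-driven construct for Flag-tagged STAT6 joined to ZsGreen by an IRES, introduced by stable transduction. The construct encoded wild-type STAT6 (WT) or STAT6 with D419G, D419N, or N421K, 3 changes of the DNA-binding domain that are pooled as MUT. Every group received IL-4 at 10 ng/ml for 20 min, was washed, was replated without IL-4, and gave RNA at 2, 4, or 8 h. At each time point, 9 WT libraries and 3 libraries of each mutant line were available, 54 in all. No group without IL-4 or without a construct was analysed here, and OCI-Ly1 itself carries a variant in the DNA-binding domain of its own STAT6. The sources used here do not say how many independent transductions stand behind a line, and a genotype and a transduced population cannot be told apart.

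The 6 genes act at different points of signaling. Small GTPases are molecular switches that exchange factors load with GTP. FARP2 is such an exchange factor, RHOV is an atypical GTPase of the CDC42 branch, and RHOBTB2 is a large atypical GTPase that binds the ubiquitin ligase scaffold CUL3. PAG1 is a transmembrane adaptor of lipid rafts that brings the kinase CSK to the membrane, where CSK inhibits Src family kinases such as LYN, the kinases that start B cell receptor signaling. MGLL cleaves monoacylglycerols, among them the endocannabinoid 2-arachidonoylglycerol. TFEB is a transcription factor that drives genes of lysosomes and autophagy and is kept out of the nucleus by mTORC1 at the lysosome.

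Libraries held 161518 to 2978715 UMIs, with a median of 885258.5, and 8 of them, 6 MUT and 2 WT, held under 0.5 of the median. All 10 B cell markers had a mean of at least 1 CPM (the UMI count of a gene scaled to the TMM-adjusted total of its library), with a summed level of 3241 to 3996 CPM in WT and 3093 to 4016 CPM in MUT. The summed markers of T and NK cells, myeloid cells, and stromal and epithelial cells each stayed at or under 4.62 CPM in every library. The share of mitochondrial UMIs lay between 4.52% and 7.02%. STAT6 mRNA itself stood at 152 ± 16.1 (WT) and 140 ± 14.1 CPM (MUT) at 2 h, 153 ± 14.7 and 124 ± 12.1 CPM at 4 h, and 182 ± 16.9 and 174 ± 21.04 CPM at 8 h (SD, n = 9 each). Since its count does not separate the construct from the gene of the cell, it does not check the labels. The 8 h library labelled N421K replicate 2 stood apart from the other N421K libraries of that time. With 191586 UMIs, it held 71.1 CPM of FARP2, 80.6 CPM of PAG1, and 14.2 CPM of MGLL, whereas the other 2 held 12.6 and 20.1 CPM of FARP2, 14.6 and 20.1 CPM of PAG1, and 2.0 and 4.0 CPM of MGLL. Its values for these genes lay within or near the range of the WT libraries, so the 8 h and N421K results of FARP2, PAG1, and MGLL are given with and without it.

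At 2 h, the contrast that chose the genes, the mean level of the MUT libraries was 0.46 to 0.60 of that of the WT libraries. Levels are given as CPM after TMM scaling over all 54 libraries. The fitted log2 fold changes of MUT against WT were -1.003 for FARP2, -0.78 for RHOBTB2, -1.10 for RHOV, -1.01 for PAG1, -1.01 for MGLL, and -0.84 for TFEB. They rank 13, 28, 6, 12, 11, and 24 from the lowest among the 8651 genes tested at 2 h, of which 4.67% were called lower in MUT. Only TFEB had every MUT library under the WT median, which held for 5.84% of the genes tested. At least 5 of 9 MUT libraries lay below every WT library for each of the 6 genes, against 6.48% of the genes tested. In bulk RNA, fewer cells that express a gene and less of its mRNA per cell cannot be told apart, here and in all results.

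**Figure D1:**
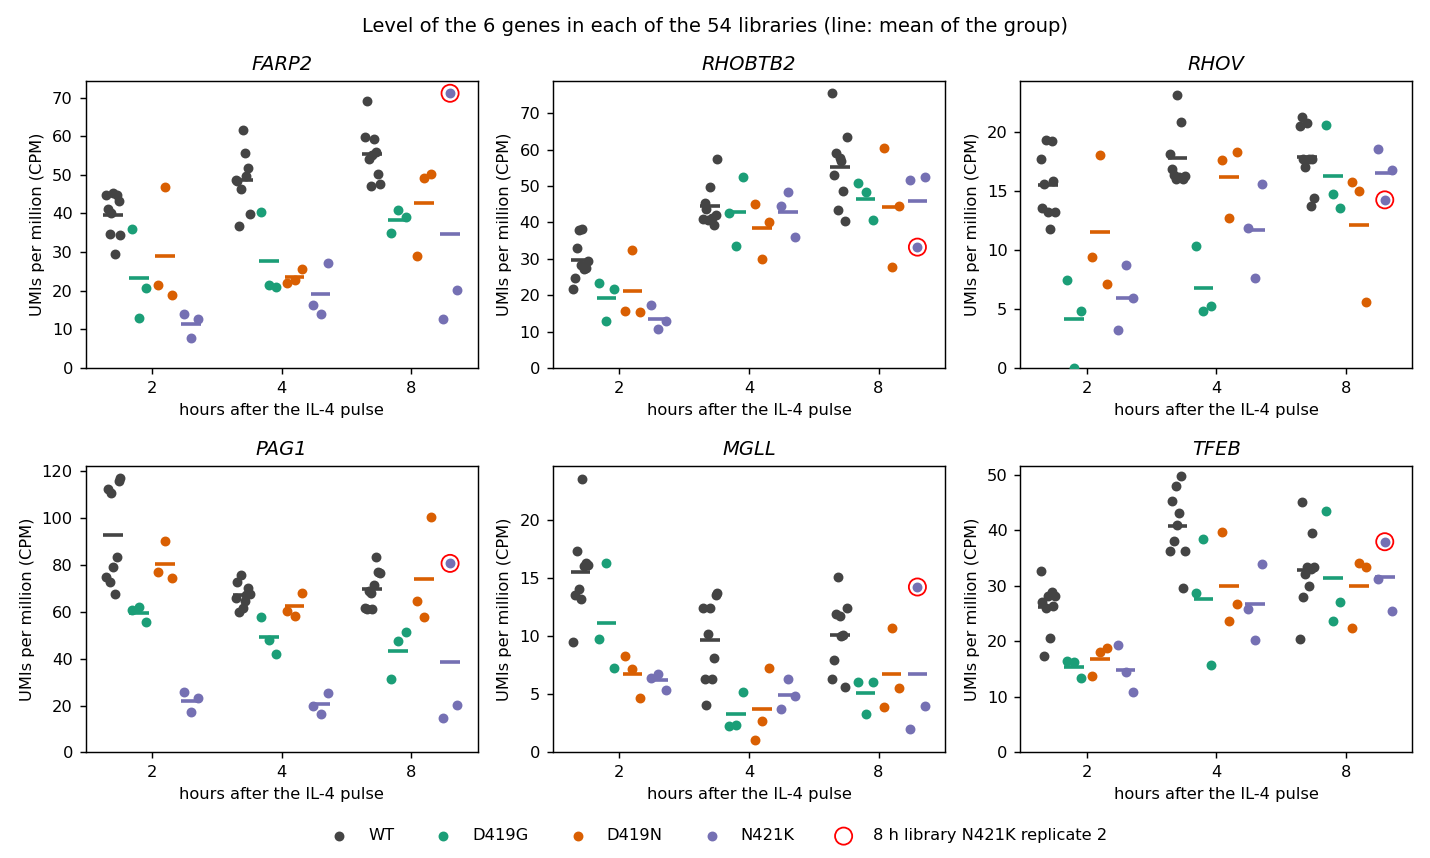
Level of each gene in CPM (y axis, linear, from 0) in every library at 2, 4, and 8 h (x axis), colored by the STAT6 construct, with a bar at the mean of each group. FARP2 and PAG1 stay low in most N421K libraries, TFEB overlaps between the groups at 8 h, and a red ring marks the 8 h library labelled N421K replicate 2, at 71.1 CPM of FARP2 and 80.6 CPM of PAG1.

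FARP2 (ENSG00000006607) lies on chromosome 2 of GRCh38 at 241356285 to 241494841 on the plus strand, and its canonical transcript has 27 exons. RefSeq promoter windows of 300 bases, 250 before and 50 after a start, were available for FARP2 (1 window), RHOV (1), and TFEB (3). None of these 5 windows held, on either strand, TTC and GAA with 4 free bases between them, the palindrome that STAT6 is known to bind, against 6.44% of all 35116 windows. Nor did any hold TTC and GAA with 3 free bases between them, the form of other STATs (7.66% of all windows), 2 runs of GAAA with 2 free bases between them, as in interferon response elements (3.57%), or the E box CACGTG (7.26%). No match says only that these letters are absent from these windows. The 250 bases before the FARP2 start, chr2:241356035-241356284 on GRCh38.p14, plus strand, are shown because FARP2 was the gene called lower at both later times and in every line. Capitals mark CCAAT, a motif looked for after the sequence was seen, which occurs at 141 and 73 bases before the start and in 34.6% of all windows on either strand.
FARP2 promoter: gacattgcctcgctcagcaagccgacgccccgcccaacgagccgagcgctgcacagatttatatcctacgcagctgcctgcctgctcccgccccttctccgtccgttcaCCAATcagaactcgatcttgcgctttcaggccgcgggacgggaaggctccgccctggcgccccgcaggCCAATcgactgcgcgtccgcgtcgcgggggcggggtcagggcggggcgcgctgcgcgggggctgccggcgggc
Guanine and cytosine make up 71.6% of these bases, and none of them lies in an annotated exon of FARP2.

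FARP2, the exchange factor, was lower in MUT at 4 h and 8 h. At 4 h, WT libraries ranged from 36.8 to 61.7 CPM (median 48.6) and MUT libraries from 14.0 to 40.3 CPM (median 22.01). Among them, 8 of 9 MUT libraries lay below every WT library, and the exception was D419G replicate 1. The log2 fold change was -1.08 ± 0.14 (SE), a level 2.11 times lower (edgeR quasi-likelihood test, adjusted p = 3.3e-07). Of the 8605 genes tested at 4 h, 2.01% were called lower. At 8 h, WT libraries held 47.1 to 69.0 CPM (median 55.0) and MUT libraries 12.6 to 71.1 CPM (median 39.1). The groups overlapped, with 6 of 9 MUT libraries below every WT library and the highest value of all in N421K replicate 2. The log2 fold change was -0.78 ± 0.16 (adjusted p = 0.0041), against a background of 0.591% of 8801 genes called lower, and -0.85 without that library. The 8 h call was lost with DESeq2 (adjusted p = 0.17), without replicate 1 of each line (0.064), and without the N421K line (log2 fold change -0.47, adjusted p = 0.062). FARP2 levels also moved with depth in places. The 4 deepest MUT libraries of 8 h held 12.6 to 40.9 CPM and the other 5 held 28.9 to 71.1 CPM. The deepest were N421K replicates 1 and 3 and D419G replicates 1 and 2, so depth and line cannot be told apart there. At 4 h, the 4 deepest WT libraries held 48.3 to 61.7 CPM and the other 5 held 36.8 to 51.8 CPM, and the part of depth was not tested. STK25, a kinase gene on the opposite strand that overlaps the last exon of FARP2, had log2 fold changes of -0.07 at 4 h and 0.00 at 8 h, and use of strand in counting is not given in the sources used here.

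All 3 lines held less FARP2 than WT over 4 and 8 h, and N421K had the lowest fitted value. At 4 h, D419G libraries held 40.3, 21.6, and 20.9 CPM, D419N libraries 22.01, 22.7, and 25.6 CPM, and N421K libraries 16.3, 14.0, and 27.2 CPM. At 8 h, the values were 35.1, 40.9, and 39.1 CPM in D419G, 28.9, 49.1, and 50.1 CPM in D419N, and 12.6, 71.1, and 20.1 CPM in N421K. D419N and N421K thus lay below every WT library at 4 h, and D419G did at 8 h. With all 36 libraries of 4 and 8 h in 1 model, the log2 fold change against WT was -1.37 ± 0.15 in N421K (adjusted p = 6.1e-11), or -1.53 without N421K replicate 2 of 8 h. It was -0.83 ± 0.16 in D419N (adjusted p = 5.5e-04) and -0.54 ± 0.15 in D419G (adjusted p = 0.032). Of the 9495 genes tested in this model, 3.57% were called lower in N421K, 0.527% in D419N, and 0.843% in D419G. N421K was lower than D419G by a log2 difference of -0.84 ± 0.21 (adjusted p = 0.030, with 0.432% of genes called lower) and not separated from D419N (-0.55, 95% confidence interval -0.98 to -0.12, adjusted p = 0.22). Without N421K replicate 2 of 8 h, these differences were -0.99 (adjusted p = 8.6e-04) and -0.70 (adjusted p = 0.051). Between the D419N and D419G lines, which replace the same residue, the log2 difference was -0.29 (interval -0.70 to 0.13, adjusted p = 0.84). The D419G call was lost without libraries of under 0.5 times the median depth (adjusted p = 0.11) and without any of the replicate numbers 1, 2, 3, 5, or 6, with adjusted p between 0.055 and 0.14. Lost as well was the D419N call without number 1 (0.083). The difference from D419G was lost without number 1 (-0.48, adjusted p = 0.79).

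RHOV (ENSG00000104140), the small GTPase, lies on chromosome 15 at 40872214 to 40874234 on the minus strand and spans 2021 bases. At 4 h, WT libraries held 16.0 to 23.1 CPM (median 16.3) and MUT libraries 4.798 to 18.3 CPM (median 11.8). All D419G libraries (10.4, 4.798, and 5.23 CPM) and all N421K libraries (11.8, 7.62, and 15.5 CPM) lay below every WT library, whereas the D419N libraries held 17.6, 12.7, and 18.3 CPM. The log2 fold change of MUT against WT was -0.51 ± 0.18 and missed the threshold (adjusted p = 0.13), as it did under 20 of 21 alternative fits. The exception was the fit without the D419N line, at -0.73 (adjusted p = 0.040). Over 4 and 8 h, edgeR's joint test did not call RHOV different among the mutant lines (adjusted p = 0.91). No line passed against WT by itself (adjusted p = 0.35 in D419G, 0.77 in D419N, and 0.43 in N421K). At 8 h, MUT libraries (5.57 to 20.5 CPM, median 14.9) overlapped with WT libraries (13.7 to 21.2 CPM, median 17.7), with a log2 fold change of -0.08 and a 95% interval of -0.39 to 0.23. MUT libraries counted 1 to 28 RHOV molecules at these times, and D419G replicate 2 counted 0 at 2 h.

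RHOBTB2 (ENSG00000008853), which sits on chromosome 8 at 22987417 to 23020509 on the plus strand, was not called at 4 h or 8 h. WT libraries held 39.3 to 57.4 CPM (median 41.9) at 4 h and MUT libraries 29.99 to 52.3 CPM (median 42.6), so the MUT median was the higher one. At 8 h, the ranges were 40.3 to 75.6 CPM (median 56.9) in WT and 27.8 to 60.5 CPM (median 48.3) in MUT. The log2 fold changes were -0.13 at 4 h (95% interval -0.36 to 0.10) and -0.18 at 8 h (-0.41 to 0.05), and neither passed the test (adjusted p = 0.67 and 0.52). In no line over 4 and 8 h did RHOBTB2 pass, with log2 fold changes between -0.23 (D419N) and -0.10 (N421K). TNFRSF10B, a death receptor gene on the opposite strand, overlaps the last exon of RHOBTB2, as does an antisense transcript, and counts could be shared. TNFRSF10B had log2 fold changes of 0.12 at 4 h and 0.41 at 8 h (adjusted p = 0.86 and 0.33 by edgeR). It stood at 13.7 (WT) and 15.5 CPM (MUT) at 4 h and at 14.9 and 22.4 CPM at 8 h. The antisense transcript had group means of at most 0.10 CPM at these times.

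PAG1 (ENSG00000076641), the adaptor of CSK, was lower in MUT at both later times, and the lines differed. The gene lies on chromosome 8 at 80967810 to 81112068 on the minus strand. At 4 h, WT libraries held 59.9 to 75.5 CPM (median 67.0). The N421K libraries held 20.0, 16.5, and 25.2 CPM and the D419G libraries 57.5, 47.98, and 41.9 CPM, all of them below every WT library. The D419N libraries, at 60.5, 58.2, and 68.1 CPM, overlapped with WT. MUT as a whole had a log2 fold change of -0.63 ± 0.16 at 4 h (adjusted p = 0.011). At 8 h, WT libraries held 61.0 to 83.3 CPM (median 68.8), D419G 31.4, 47.5, and 51.1 CPM, D419N 64.4, 57.6, and 100.3 CPM, and N421K 14.6, 80.6, and 20.1 CPM. All D419G libraries and 2 of 3 N421K libraries lay below every WT library, and the pooled log2 fold change was -0.82 ± 0.18 (adjusted p = 0.0069), or -0.88 without N421K replicate 2. The pooled calls rested on N421K: MUT without that line had log2 fold changes of -0.19 at 4 h and -0.44 at 8 h (adjusted p = 0.59 and 0.11). DESeq2 did not make the calls (adjusted p = 0.081 at 4 h and 0.77 at 8 h), and the 4 h call was lost without the libraries numbered 2 (0.068).

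Over 4 and 8 h, N421K held 3.18 times less PAG1 than WT (log2 fold change -1.67 ± 0.14, adjusted p = 5.2e-16), and -1.84 on the log2 scale without N421K replicate 2 of 8 h. D419G had a log2 fold change of -0.56 ± 0.13 (adjusted p = 0.0061), a call lost without replicate number 1 (0.086), and D419N had -0.10 (95% interval -0.33 to 0.14, adjusted p = 0.81). Among the mutant lines, PAG1 (adjusted p = 1.9e-09) and FARP2 (0.046) were the members that differed in the joint test, which called 1.28% of 9495 genes. PAG1 was called in that test under all 19 alternatives, and FARP2 under 8 of 19, with adjusted p between 7.2e-04 and 0.92. N421K held 2.16 times less PAG1 than D419G (log2 difference -1.11 ± 0.19, adjusted p = 7.9e-05, or 0.10 without replicate number 1) and less than D419N (-1.57 ± 0.18, adjusted p = 9.6e-10, with 0.779% of genes called lower). Without N421K replicate 2 of 8 h, these log2 differences were -1.28 and -1.73. Between D419N and D419G, the log2 difference was 0.46 (interval 0.14 to 0.78) and was not called (adjusted p = 0.47). PAG1 levels moved with depth in places: at 2 h, the 4 deepest WT libraries held 110.5 to 117.2 CPM and the other 5 WT libraries 67.7 to 83.4 CPM. At 8 h, the 4 deepest MUT libraries held 14.6 to 47.5 CPM and the other 5 held 51.1 to 100.3 CPM, while the 4 deepest WT libraries, at 68.8 to 77.0 CPM, fell within the range of the others. Those deepest MUT libraries were N421K replicates 1 and 3 and D419G replicates 1 and 2, and every D419N library was among the others. Depth and line thus cannot be told apart in MUT at 8 h. The part of depth in these results was not tested.

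MGLL (ENSG00000074416), the monoacylglycerol lipase, lies on chromosome 3 at 127689062 to 128052190 on the minus strand and had the fewest molecules of the 6 genes. MUT libraries counted 1 to 6 MGLL molecules at 4 h and at 8 h and WT libraries 3 to 31, so the count filter removed it from the tests of single time points. At 4 h, WT libraries held 4.08 to 13.7 CPM (median 10.2) and MUT libraries 1.10 to 7.30 CPM (median 3.70), and every MUT library lay below the WT median, as for 3.5% of the genes tested at 4 h. At 8 h, the ranges were 5.65 to 15.1 CPM (median 10.1) in WT and 1.99 to 14.2 CPM (median 5.57) in MUT. An edgeR fit that kept every gene with a count gave MGLL a log2 difference of -1.30 at 4 h (adjusted p = 0.0084) and of -1.12 at 8 h (adjusted p = 0.031), with 0.588% of 26708 and 0.512% of 26539 genes called lower. With the 6 genes kept whatever their counts, the log2 fold changes were -1.31 at 4 h (adjusted p = 0.0044), -1.11 at 8 h (0.026; -1.20 without N421K replicate 2), and -1.20 over both times (1.8e-05). In the model of lines, which it passed, MGLL was lower in D419G (-1.29 ± 0.34, adjusted p = 0.022) and in N421K (-1.20 ± 0.29, adjusted p = 0.0027, or -1.33 without N421K replicate 2 of 8 h), and D419N had -1.11 ± 0.33 (adjusted p = 0.073). The joint test among the lines gave an adjusted p of 0.98. In the fit that kept the 6 genes, the 4 h call was lost without replicate number 1 (adjusted p = 0.20). The 8 h call was lost with DESeq2 (adjusted p = 0.23), limma-voom (0.13), without replicate numbers 1 (0.11), 3 (0.24), or 9 (0.052), and without the D419G (0.092) or N421K line (0.15). The line calls were lost without number 1 (0.13 in D419G, 0.22 in N421K) and in D419G also without number 2 (0.21), without libraries of under 0.5 times the median depth (0.053), with limma-voom (0.084), and with culture as a random effect (0.081). The 4 deepest MUT libraries of 8 h held 1.99 to 6.04 CPM of MGLL and the other 5 held 3.94 to 14.2 CPM, and the part of depth was not tested. None of the deepest was a D419N library, so depth and line cannot be told apart there.

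TFEB (ENSG00000112561), the lysosomal transcription factor, lies on chromosome 6 at 41683978 to 41736259 on the minus strand and was lower in MUT at 4 h. WT libraries then held 29.6 to 49.7 CPM (median 40.9) and MUT libraries 15.7 to 39.6 CPM (median 26.8). All 9 MUT libraries lay below the WT median, and 6 of 9 lay below every WT library, 2 of each line. The log2 fold change was -0.50 ± 0.13 (adjusted p = 0.019), which DESeq2 put at an adjusted p of 0.059 and which was lost without replicate number 2 (0.19) or the N421K line (-0.45, 0.19). At 8 h, the groups overlapped fully, with 20.5 to 45.1 CPM (median 33.0) in WT and 22.3 to 43.5 CPM (median 31.1) in MUT. No MUT library lay below every WT library, and the log2 fold change was -0.11 (95% interval -0.38 to 0.16, adjusted p = 0.80). Over both times it was -0.31 ± 0.10 (adjusted p = 0.040), a call lost without most single replicate numbers and without the D419N (0.086) or N421K line (0.19), and no line passed by itself (log2 fold changes -0.36 in N421K, -0.34 in D419N, and -0.22 in D419G).

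**Figure D2:**
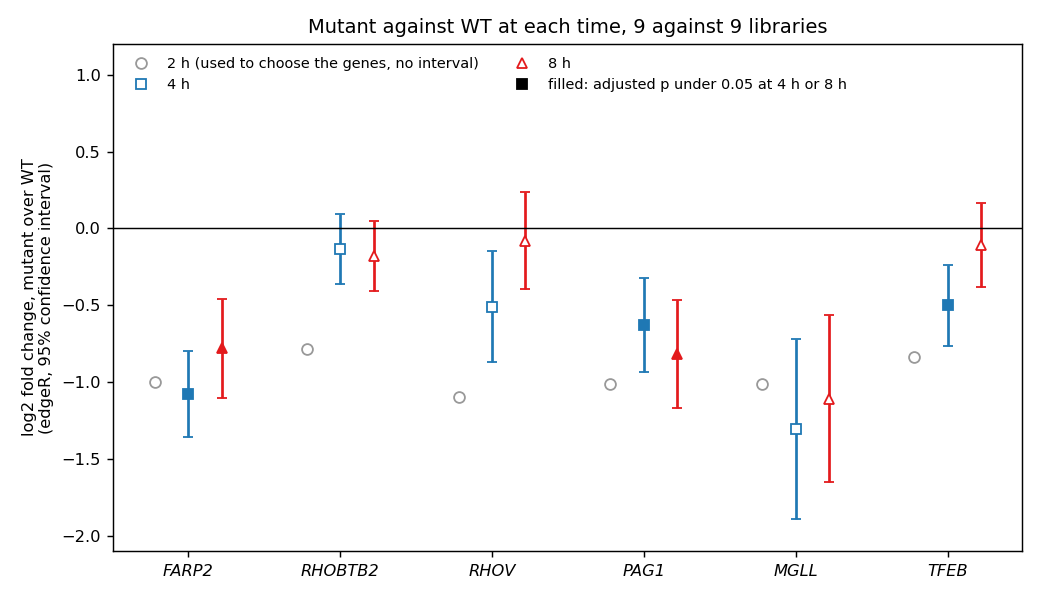
Fitted log2 fold change of MUT over WT (y axis) for each gene (x axis) at 2, 4, and 8 h, with 95% confidence intervals at 4 h and 8 h and filled symbols for an adjusted p under 0.05. FARP2 and PAG1 are filled at both later times and TFEB at 4 h, while MGLL, drawn from the fit that kept it whatever its counts, has open symbols because it missed the count filter.

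Counting members, 3 of the 5 that could be tested were called lower at 4 h (FARP2, PAG1, and TFEB), against 2.01% of 8605 genes. At 8 h, 2 of 5 were called lower (FARP2 and PAG1), against 0.591% of 8801 genes, and none was called higher at either time. Over 4 and 8 h, FARP2, PAG1, and TFEB were called among the 5 genes tested, against 3.36% of 8930 genes called lower, and MGLL missed the count filter there too. At 4 h, 5 of the 6 genes, all but RHOBTB2, had at least 5 of 9 MUT libraries below every WT library, which held for 5.18% of the genes tested. At 8 h, FARP2, PAG1, and MGLL did, against 5.17%. All these counts come from the lines whose 2 h libraries chose the genes, so a difference of a line can carry over to them. Exact permutation tests of the mean log2 CPM, 9 against 9 libraries and two-sided, gave 7 of 12 unadjusted p under 0.05, beside 15.1% of all genes at 4 h and 13.7% at 8 h by edgeR's unadjusted p. At 4 h, the exact permutation p was 0.00012 for FARP2, 0.00086 for PAG1, 0.0014 for MGLL, 0.0025 for TFEB, 0.0041 for RHOV, and 0.29 for RHOBTB2. At 8 h, the exact permutation p was 0.010 for FARP2, 0.019 for MGLL, 0.053 for PAG1, 0.068 for RHOBTB2, 0.093 for RHOV, and 0.59 for TFEB. The smallest p that this design allows is 4.1e-05.

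**Figure D3:**
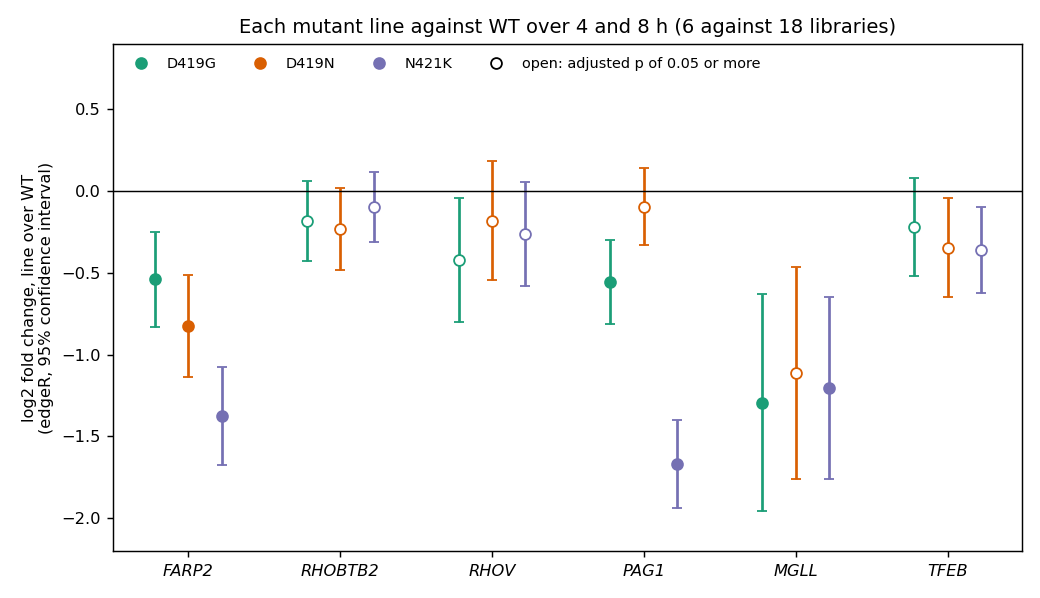
Fitted log2 fold change of each mutant line over WT across 4 and 8 h (y axis) for each gene (x axis), with 95% confidence intervals and open symbols for an adjusted p of 0.05 or more. N421K lies lowest for FARP2 (-1.37) and PAG1 (-1.67), and the D419N point of PAG1 (-0.10) sits near 0.

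The mean levels of the genes did not follow the same course in time, with the 2 h values, which chose the genes, as a description. Rows A and B of the plate held the 2 h libraries, C and D those of 4 h, and E and F those of 8 h. Time and plate row thus cannot be told apart. RHOBTB2 had its lowest WT level at 2 h (29.7 ± 5.60 CPM, SD, n = 9), followed by 44.5 ± 5.78 at 4 h and 55.3 ± 10.7 at 8 h, and MUT had 18.0 ± 6.81, 41.4 ± 7.19, and 45.5 ± 10.2 CPM. TFEB had 26.1 ± 4.58, 40.8 ± 6.42, and 32.8 ± 6.90 CPM in WT, with its highest mean at 4 h, and 15.7 ± 2.82, 28.1 ± 8.02, and 30.98 ± 7.02 CPM in MUT. FARP2 had 39.7 ± 5.68, 48.8 ± 7.52, and 55.3 ± 6.86 CPM in WT and 21.3 ± 12.5, 23.4 ± 7.55, and 38.6 ± 17.4 CPM in MUT. The others had their highest WT mean at 2 h or changed little: MGLL had 15.5 ± 3.81, 9.67 ± 3.59, and 10.1 ± 3.06 CPM and PAG1 92.6 ± 20.8, 67.2 ± 4.97, and 69.9 ± 7.94 CPM. RHOV had 15.5 ± 2.77, 17.7 ± 2.56, and 17.8 ± 2.66 CPM in WT and 7.18 ± 4.99, 11.55 ± 5.02, and 14.96 ± 4.17 CPM in MUT. From 4 to 8 h, 0 of the 6 genes passed edgeR's test in WT, where 6.2% of 8924 genes did. In MUT, 0 of the 5 genes that could be tested passed, MGLL being left out by the count filter, against 10.4% of 9034 genes. At an unadjusted p under 0.05, 2 passed in WT and 0 in MUT, against 20.1% and 24.5% of all genes, and DESeq2 and limma-voom also called 0. Closest were TFEB (log2 change -0.35, adjusted p = 0.061) and RHOBTB2 (0.30, adjusted p = 0.071) in WT. Both passed in WT without replicate number 8 (0.020 and 0.034). The difference between MUT and WT was not called different between 4 h and 8 h for any of them, with TFEB at 0.39 ± 0.19 and RHOV at 0.43 ± 0.24 on the log2 scale (adjusted p = 0.63 and 0.69), and 0.0326% of 9197 genes were called in that test. TFEB alone had an unadjusted p under 0.05 there, as had 7.9% of all genes, and DESeq2 and limma-voom called 0 of the 6.

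Ordered by mean level over the 12 conditions of line and time, FARP2 was lowest in N421K at 2 h (11.48 ± 3.30 CPM) and highest in WT at 8 h, and PAG1 was lowest in N421K at 4 h (20.6 ± 4.40 CPM) and highest in WT at 2 h. RHOBTB2 was lowest in N421K at 2 h (13.5 ± 3.33 CPM) and highest in WT at 8 h, RHOV lowest in D419G at 2 h (4.11 ± 3.80 CPM), MGLL lowest in D419G at 4 h (3.31 ± 1.67 CPM), and TFEB lowest in N421K at 2 h (14.9 ± 4.27 CPM). Most neighbors in these orders were not apart by more than their SDs: of 11 neighboring pairs per gene, the ranges of mean ± SD were separate in 1 pair for TFEB, between D419N at 2 h (16.9 ± 2.68 CPM) and WT at 2 h (26.1 ± 4.58 CPM), and in 0 for the other genes. Both of these TFEB means are of 2 h, the contrast that chose the genes, so their separation is a description. The same holds for the mutant lines named as lowest at 2 h.

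Genes with roles next to those of the 6 were grouped in lists, and 4 of them are given here. Over all genes tested, 3.97% were called in either direction at 4 h and 1.44% at 8 h. The median log2 fold change over all genes tested was 0.00 at either time. The closest relatives of the members were barely present: FARP1, RHOU, RHOBTB1, and RHOBTB3 had means under 1.5 CPM in both groups at 4 h and 8 h and missed the filter.

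PAG1 works with CSK and sits among other membrane adaptors. Of 13 genes of this list tested at 4 h, 3 were lower in MUT, a median of -0.11 over the list, and 0 were higher. CSK itself had 241 ± 36.9 CPM in WT and 195 ± 31.4 CPM in MUT (SD, n = 9; log2 fold change -0.32, adjusted p = 0.013). SIT1, a transmembrane adaptor that holds back lymphocyte receptor signaling, had -0.58 (adjusted p = 0.0030), and BLK, a Src family kinase of B cells, had -0.64 (adjusted p = 0.011). At 8 h, SIT1 was the 1 gene of 14 that was called (-0.36, adjusted p = 0.036), and CSK had -0.16 (0.34). LYN was not called, with -0.21 at 4 h (adjusted p = 0.089) and 0.07 at 8 h (0.69).

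Around MGLL, 10 genes of 2-arachidonoylglycerol and lipolysis were tested at 4 h and 9 at 8 h. NAPEPLD, which makes N-acylethanolamines, was lower at 4 h (-0.43, adjusted p = 0.025) and had -0.07 at 8 h (adjusted p = 0.87), when 0 genes of the list passed edgeR's test and 3 had an unadjusted p under 0.05. The other hydrolase of 2-arachidonoylglycerol with a level that could be tested, ABHD12, had 0.31 at 4 h and 0.34 at 8 h (adjusted p = 0.33 and 0.34), and ABHD6 missed the filter. Of 16 regulators and relatives of TFEB, LAMTOR4, a subunit of the complex that anchors mTORC1 at lysosomes, was lower at 4 h (-0.31, adjusted p = 0.0028) and 8 h (-0.26, adjusted p = 0.036). The other subunits of that complex, LAMTOR1, LAMTOR2, LAMTOR3, and LAMTOR5, were not called at either time. Their log2 fold changes lay between 0.00 and 0.04 at 4 h and between -0.12 and 0.06 at 8 h. TFE3, the nearest relative present, had -0.07 and -0.03 (adjusted p = 0.93 and 0.98), and MITF was close to 0 CPM. Of the genes that TFEB is known to bind at lysosomal CLEAR sites, 29 were tested at 4 h. Among them, 0 were called lower, near the 2.01% called lower over all genes tested. Called higher were 2, among them NPC2 (0.52, adjusted p = 0.026). Whether the level of TFEB bears on these genes was not tested. At 8 h, edgeR called 0 of 30, with 5 at an unadjusted p under 0.05, and the list medians were 0.04 and 0.03.

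**Figure D4:**
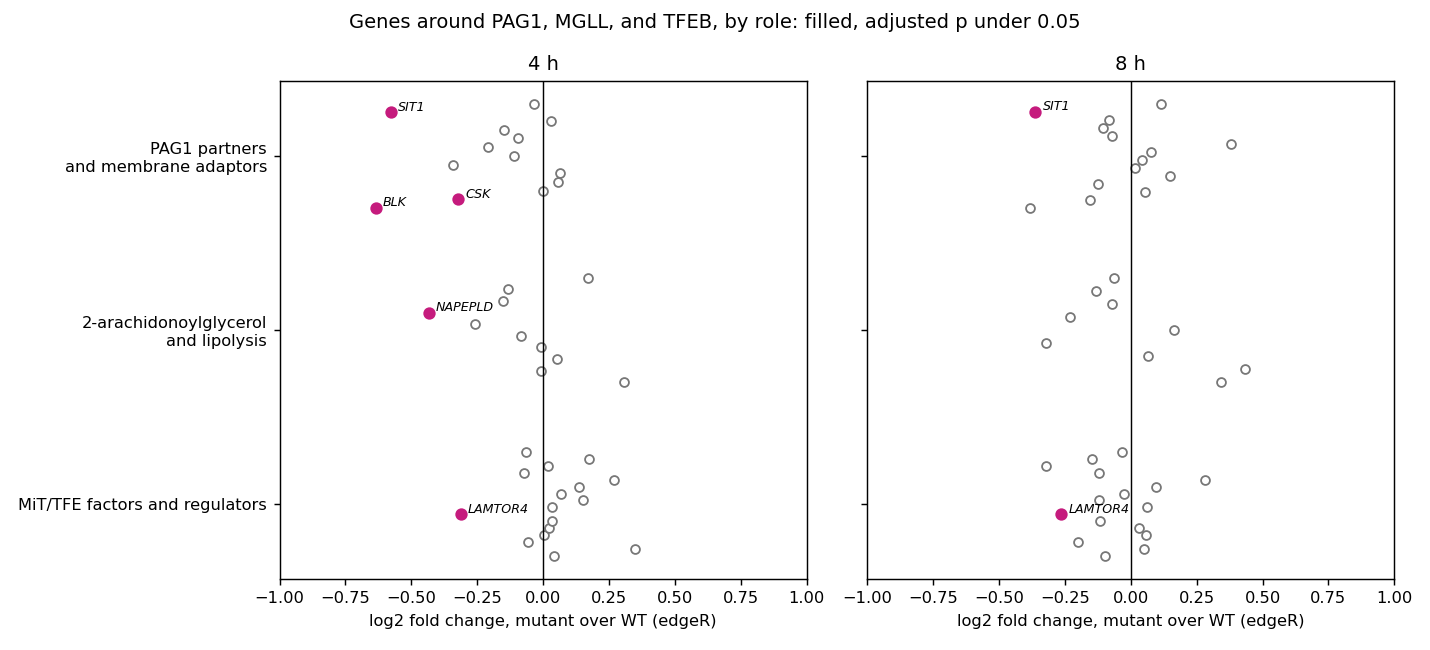
Log2 fold change of MUT over WT (x axis) for each tested gene of 3 lists (y axis) at 4 h (left) and 8 h (right), with called genes filled and named. At 4 h, 3 of 13 tested genes around PAG1, 1 of 10 around MGLL, and 1 of 16 around TFEB are filled, against 3.97% of all genes tested. At 8 h, 1 of 14, 0 of 9, and 1 of 16 are filled, against 1.44%. SIT1 and LAMTOR4 are the genes of these lists called at both times.

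For each gene, the 3 genes whose mean log2 CPM over the 12 conditions followed it most closely were taken among 10147 expressed genes, with Pearson's r as the measure of likeness. The 12 means share libraries, time, and line and include the 2 h values that chose the 6 genes, so r is a description. FARP2 was followed by SCML4 (r = 0.94), SLC29A2 (0.92), and MCM7 (0.92). RHOBTB2 was followed by ARHGEF2 (r = 0.97), UBTF (0.95), and UBE2O (0.95), and TFEB by LZTS2 (0.97), EEIG1 (0.97), and POU2F2 (0.96). PAG1 was followed by CD48, a surface receptor of lymphocytes (r = 0.95), CYB5A (0.94), and B9D1 (0.92). RHOV was followed by BORCS8 (r = 0.93), C9orf64 (0.91), and STK17A (0.91), and MGLL, at lower r, by ZBTB24 (0.86), IMMP2L (0.83), and NCF1B (0.82), a pseudogene with near-identical copies. Among the 6 genes themselves, RHOBTB2 and TFEB were most alike (r = 0.93) and RHOBTB2 and MGLL least (r = -0.23).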

How the data were processed

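RNA of 54 cell samples was made into prime-seq libraries, which tag the 3′ end of mRNA with unique molecular identifiers (UMIs). The authors ran the Drop-seq pipeline on reads from an Illumina HiSeq and deposited the UMI counts of every well as raw, unscaled numbers. The build is hg38 per the submitters' processing notes, whereas the aligner, the gene annotation, and whether strand was used in counting were not stated in the sources read. Of 31835 identifiers, 30959 matched a symbol.

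Groups came from the sample labels. Counts were tested with edgeR 4.0.16 in R 4.3.3 (TMM, filterByExpr, quasi-likelihood F test, Benjamini-Hochberg over all genes tested, adjusted p under 0.05), beside DESeq2 1.42.0 and limma 3.58.1. A called gene is one under that threshold, and 95% intervals are normal intervals from the SE. CPM are UMI counts scaled to TMM-adjusted library totals, and log2 CPM used a prior count of 2. Plots used Python 3.11.15 and matplotlib 3.10.9. The steps were tested on simulated data.

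The 6 genes, the gene lists, and the tests were chosen with earlier results of these data known. The named genes were the 6, up to 4 called genes of each list (some lists and genes are not reported here), the closest relatives and partners of the 6 whatever their values, STAT6, and for each of the 6 the 3 genes most alike over conditions. Gene positions are from GENCODE v44 on GRCh38 and promoter windows from RefSeq on GRCh38.p14. The labels call the libraries of one condition biological replicates, and whether a number marks the same culture at each time is not given, so p-values measure the spread between these libraries. No 2 libraries of a condition agreed within sampling noise (135 pairs, chi-square per degree of freedom 1.07 to 3.98).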

Additional observations from a re-analysis of the deposited data

Results flagged for a closer look

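Libraries far from the rest of their group were sought among 36 groups of 9 libraries (WT or MUT, per gene and time), and 3 groups held one. Chance flags about 1 in 20 groups drawn from 1 population. A MUT group mixes 3 lines, so that rate may not hold for it. The groups of 2 h, the time that chose the genes, are included as a description. MGLL in MUT at 2 h had its highest library at 16.3 CPM (D419G replicate 2), against 9.73 CPM in the next. That library counted 5 MGLL molecules among 299578 UMIs. FARP2 in MUT at 4 h had its highest library at 40.3 CPM (D419G replicate 1), against 27.2 CPM in the next. RHOV in MUT at 8 h had its lowest library at 5.57 CPM (D419N replicate 3), against 13.5 CPM in the next, and this library counted 1 RHOV molecule among 161518 UMIs.

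The mutant lines differed by tests of the difference itself over 4 and 8 h. N421K against D419G gave a log2 fold change of -0.84 for FARP2 and -1.11 for PAG1, and N421K against D419N gave -1.57 for PAG1. Without replicate number 1, both differences from D419G missed the threshold (adjusted p = 0.79 and 0.10).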

How the results depend on the processing

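Alternatives covered scaling, count filter, tool, plate row, replicate block, culture as a random effect, and the libraries left out. Leaving out a replicate number from 1 to 3 removes 1 library of each line and time. The sources used here do not say whether the replicate numbers pair the samples. Same-numbered libraries of different lines had correlations of their deviations between -0.22 and 0.20, over 0.1 in 6 of 54 pairs. With few libraries per line and time, these values cannot decide whether the numbers pair samples. The fit with the replicate block left 1 gene called at 4 h (main 3) and 1 at 8 h (main 2), FARP2 at both times, 0 in D419G (main 3), and 1 among the lines (main 2). Across all genes, the block moved the calls from 342 to 78 at 4 h, from 127 to 31 at 8 h, and from 591 to 238 over both. Replicate numbers 4 to 9 exist in WT only. With the block, the WT libraries of these numbers add nothing to the comparison with MUT at a single time point, so fewer WT libraries carry it.

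DESeq2 called 0 of the 6 genes at 8 h. Its median log2 fold change over all genes with a count was 0.12 at 8 h, 0.16 over 4 and 8 h, 0.21 in D419G, and 0.18 in D419N. With edgeR, the median at 8 h was 0.005 in the main fit and 0.0005 with DESeq2's size factors, both over genes that passed the count filter. Over all genes with a count, edgeR had a median of -0.026 at 8 h. Without the N421K line, 1 gene was called at 4 h and 0 at 8 h. Without libraries under 0.5 of the median total, 1 was called in D419G and 1 (TFEB) from 4 to 8 h in WT. Among the lines, 1 gene (PAG1) was called with DESeq2's size factors and with a mean count of at least 10. Without each replicate number in turn, the counts ranged from 1 to 3 at 4 h and at 8 h, from 0 to 3 in D419G, from 0 to 1 in D419N, from 1 to 2 among the lines, and from 0 to 2 from 4 to 8 h in WT. The change of TFEB from 4 to 8 h in MUT turned to -0.021 without the N421K line and ranged from -0.013 to 0.091 without single replicate numbers. The difference of the FARP2 effect between 8 h and 4 h ranged from -0.076 to 0.62. The cause of these changes was not tested.

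Other counts of all genes called also moved by over 1.5 times, with extremes of 102 to 242 in D419G (main 211), 57 to 168 in D419N (main 132), 272 to 731 in N421K (main 649), 24 to 181 among the lines (main 122), 350 to 808 from 4 to 8 h in WT (main 553), and 220 to 991 in MUT (main 936). At 4 h they reached 435, at 8 h 300, over both 721. Low counts limit MGLL and RHOV most, at 1 to 6 and 1 to 28 molecules per MUT library at 4 h and 8 h, and counting error then adds to the spread.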
